A study of Equisetum hyemale and Pteris vittata and Marchantia polymorpha with 22 samples.

Results

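Transcripts of the calcium sensors, kinases and pumps of land plants were compared between hypoxia and air in 5 species. A gene was taken as a member when its best hit in *Arabidopsis thaliana* carried a description naming a calmodulin, a calcineurin B-like protein, a CBL-interacting protein kinase, a calcium-dependent protein kinase, an autoinhibited Ca2+-ATPase or an EF-hand. The rule found 95 *A. thaliana* best hits and 869 of the 180885 features in the tables. They were 67 of the 13572 genes of the liverwort *Marchantia polymorpha*, 129 of 21442 of the moss *Physcomitrium patens*, and 85 of 16892 of the lycophyte *Selaginella moellendorffii*. The horsetail *Equisetum hyemale* gave 246 of 55254 genes assembled without a genome, and the fern *Pteris vittata* 342 of 73725 assembled transcripts. Descriptions are those of *A. thaliana* proteins, so a name such as CIPK9 below means that CIPK9 was the best hit, not that the gene is its ortholog.

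The study asked how the transcript response to low oxygen differs among the main groups of land plants. All plants were 13 days old and spent 8 h in darkness, hypoxia samples at 1% O2 and air samples at 21% O2, so that darkness was common to every library. Each of the 22 libraries came from 3 plants, with 3 air and 3 hypoxia libraries for *E. hyemale* and 2 of each for the other species. *M. polymorpha* (thalli of accession Cam-2 grown from gemmae), *S. moellendorffii* and *P. vittata* (both from shoot cuttings) were grown in vitro on medium with sucrose, *P. patens* (from cuttings) on Knop medium, and *E. hyemale* in soil. The liverwort and moss samples are haploid gametophytes and the other species diploid sporophytes, and no roots were sampled as such.

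Calcium ions act as a second messenger in plant cells. A stimulus opens channels, cytosolic Ca2+ rises, EF-hand proteins bind it and change shape, and pumps then return the ion to the vacuole, the endoplasmic reticulum or the outside. Calmodulins and calmodulin-like proteins pass the signal to partner proteins, CBLs recruit the CIPK kinases to membranes, and the CDPKs (CPKs) carry sensor and kinase in a single protein. In *A. thaliana*, low oxygen is followed by a rise of cytosolic Ca2+, and genes of several of these families are known to respond to it.

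Values are CPM, that is reads of a gene as a share of all reads of its library, scaled between the libraries of a species by the authors. A single read was worth 0.0347 to 0.0616 CPM (a depth of 16.2 M to 28.9 M reads per library). Species were normalized separately, so levels are compared within a species only. The members together took 0.4% to 0.655% of the CPM of a library. Light-harvesting chlorophyll a/b protein transcripts summed to between 14123 and 29984 CPM per library. They were lower under hypoxia without overlap in *E. hyemale*, at 14129, 15668 and 15500 CPM against 18729, 17831 and 18244 CPM in air, and in *P. patens*, at 17107 and 19149 CPM against 22331 and 21586 CPM, and their part in the results of these species was not tested. Rubisco small subunits summed to 175 to 269 CPM in *E. hyemale* (6 features), 981 to 1284 CPM in *P. vittata* (2 features) and 5796 CPM or more elsewhere. These sums cover unlike numbers of features and do not rank the species. Sucrose synthase transcripts were higher under hypoxia without overlap in every species, for example at 2564 and 2632 CPM against 1132 and 1388 CPM in *M. polymorpha*, and at 790 and 660 CPM against 610 and 616 CPM in *P. vittata*. Pyruvate decarboxylase sums overlapped in *P. vittata*, and alcohol dehydrogenase 1 was higher without overlap in *S. moellendorffii* and *E. hyemale* but overlapped in *P. vittata*, was lower in *M. polymorpha* at 13.4 and 12.5 CPM against 14 and 15.2 CPM, and was the best hit of no moss gene. In *S. moellendorffii* air replicate 3 stood apart, with 995 CPM of pyruvate decarboxylase against 444 CPM in the other air library and 3132 and 2702 CPM under hypoxia. That other air library is a column numbered 2, a number absent from the labels of the air samples, and was used as an unnumbered air library. Bulk RNA cannot tell fewer cells of a type from less RNA per cell.

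**Figure D1:**
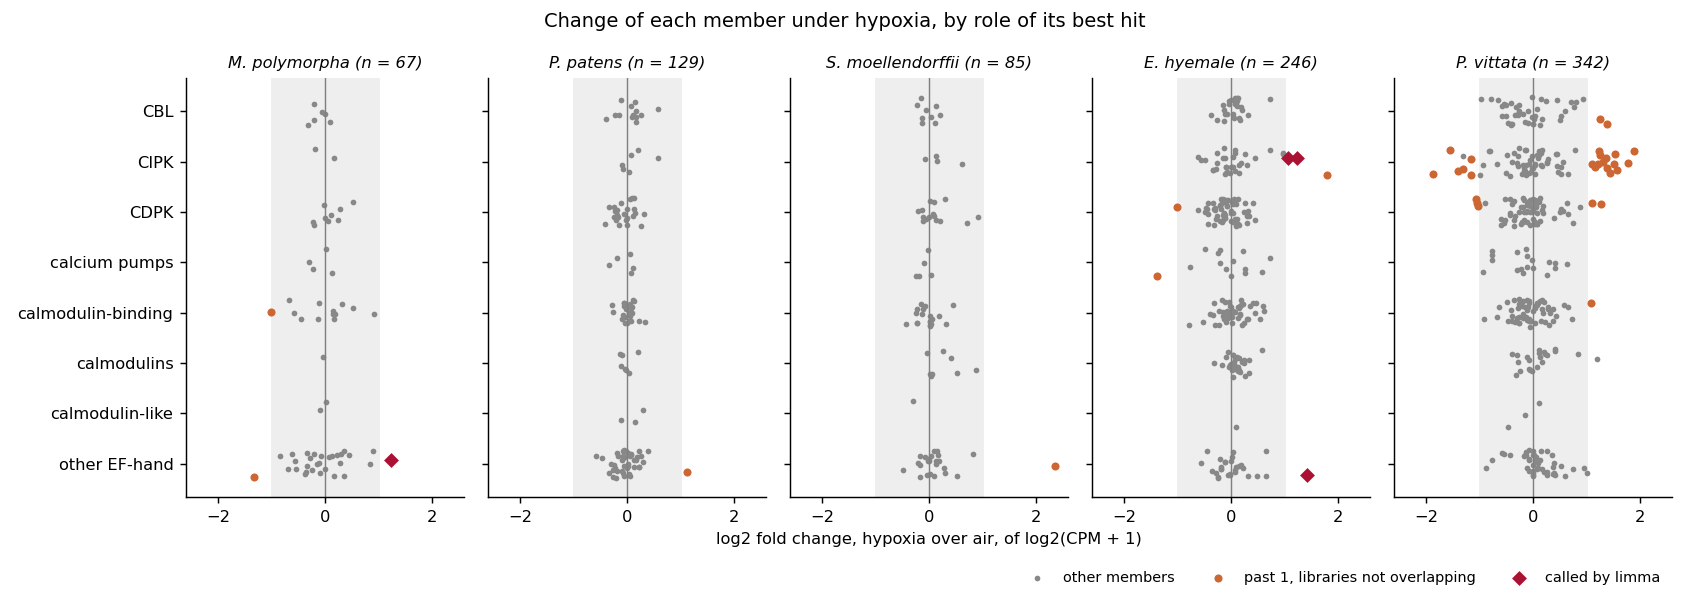
Fold change under hypoxia for every member, by role and species, as log2(CPM + 1) differences between the mean of the hypoxia and the mean of the air libraries, each point being 1 member. Most members lie near 0 in every role and species, and the widest scatter is among the CIPK transcripts of *P. vittata*, from -1.87 to 1.88.

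Most of the calcium signalling genes had fold changes near 0. The median log2 fold change (log2FC, the difference of mean log2(CPM + 1), hypoxia minus air) of the members was 0.02 for *S. moellendorffii*, 0.01 for *E. hyemale*, -0.01 for *P. patens*, -0.03 for *P. vittata* and -0.04 for *M. polymorpha*, where the median over all features was 0.00 in size in every species. Across the members averaging above 1 CPM the SD of log2FC was 0.37, 0.36, 0.21, 0.54 and 0.44 in the same order, beside 0.29, 0.41, 0.24, 0.50 and 0.40 for all such features. A feature was called when its adjusted p from limma (Benjamini-Hochberg over the whole table) was 0.01 or less and its log2FC was past 1 in size. Libraries that do not overlap are common when no fold is asked for. Of all features, 26% in *S. moellendorffii*, 9.66% in *E. hyemale*, 20.5% in *P. patens*, 21.6% in *P. vittata* and 30.1% in *M. polymorpha* lay higher. Those lying lower were 23.5%, 9.38%, 20.9%, 20.9% and 30.4% in the same order.

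In *M. polymorpha* limma called 1 of 67 members higher and 0 lower, where 1.47% of all genes were called higher and 1.35% lower. With p under 0.05 before adjustment and the same fold, the members numbered 1 higher and 2 lower, against 1.67% and 1.67% of all genes. The libraries did not overlap, with log2FC past 1, for 1 member higher and 2 lower, where the whole table had 1.67% and 1.68%. In *P. patens* limma called 0 of 129 members in either direction, and 0.07% of all genes higher and 0.014% lower. With log2FC past 1 and an unadjusted p under 0.05, there was 1 moss member higher and 0 lower (0.322% and 0.0886% of all genes), and the same numbers did not overlap (0.336% and 0.0979%).

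In *S. moellendorffii* limma called none of the 85 members and none of the table, that is 0% in each direction. With log2FC past 1 and p under 0.05 before adjustment there were 1 member higher and 0 lower (1.14% and 0.0178% of all genes), and by libraries that did not overlap also 1 and 0 (1.21% and 0.0237%). In *E. hyemale* 3 of 246 members were called higher and 0 lower, where the whole table had 0.673% and 0.0452%. Before adjustment, at p under 0.05 with that fold, 4 horsetail members were higher and 2 lower (1.41% and 0.382% of all genes), and 4 and 2 did not overlap (1.33% and 0.333%).

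In *P. vittata* limma called 0 of 342 members in either direction and 0% of all transcripts in either direction. In simulated *P. vittata* data 0% of the transcripts changed by 2 on the log2 scale were called, and 82.5% of those changed by 4, so that 0 calls here do not show that changes of the former size were missing. At an unadjusted p under 0.05 with log2FC past 1, limma gave 18 members higher and 9 lower, against 2.44% and 1.19% of all transcripts. Without overlap past that fold, 19 members were higher and 10 lower, against 2.83% and 1.54% of all transcripts. Of the 19 higher members 14 were CIPKs, and of the 10 lower members 7, where CIPKs were 77 of the 342 members. The calls by limma thus came to 4 members over all species, each higher under hypoxia. In *S. moellendorffii* and *P. vittata* 0% of the table was called, and elsewhere at most 1.47% in a direction. A role with 0 calls below is therefore not read as a result about that role.

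Calmodulins (68 members) are small EF-hand proteins that bind and switch many target proteins. None was called, with 8 of them in *S. moellendorffii* and 22 in *P. vittata*, where no feature of the table was called. The single *M. polymorpha* calmodulin, Mapoly0029s0154.1 with CAM5 as its best hit, was among the most abundant members, at 1009 and 959 CPM in air and 967 and 940 CPM under hypoxia (log2FC -0.04 ± 0.13 SE). The most abundant calmodulin of *P. patens*, Pp3c14_8590 (CAM5), stood at 310 and 338 CPM in air and 303 and 284 CPM under hypoxia. That of *E. hyemale*, Ehym_DN109991_c8_g2 (CAM1), had 116, 131 and 128 CPM in air and 110, 108 and 161 CPM under hypoxia, groups that overlap. In *P. vittata*, TRINITY_DN23527_c0_g1_i1 (CAM1) overlapped as well, with 159 and 123 CPM in air and 167 and 149 CPM under hypoxia.

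Among the 8 calmodulins of *S. moellendorffii*, 7 had a log2FC above 0, beside 50.3% of all its genes. Gene 81875 (CAM5) had 20.6 and 29.5 CPM in air and 51.1 and 41.7 CPM under hypoxia, so that the libraries did not overlap (log2FC 0.88 ± 0.19, adjusted p = 0.15). The most abundant of them, 141966 (CAM5), lay at 506 and 550 CPM in air and 541 and 546 CPM under hypoxia, within the spread of its air libraries. The summed CPM of the 8 genes was 933 and 996 in air and 1062 and 1048 under hypoxia. For 81875 the higher of the air values was that of air replicate 3, the library that also stood apart in the fermentation genes, whose part in this difference was not tested. In *E. hyemale* the calmodulin with the largest difference was Ehym_DN104494_c1_g1 (CAM6), at 49.4, 53 and 42.9 CPM in air and 84.4, 54.3 and 82.7 CPM under hypoxia (log2FC 0.58 ± 0.18, adjusted p = 0.18), where a single hypoxia library came close to the air range.

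The 10 members described as calmodulin-like had best hits named CML23, CML11 or calmodulin-related (AT1G73440), and none was called. The class follows the wording of the description. Calmodulin-like proteins described only by their EF-hands were counted with the remaining EF-hand members. In *M. polymorpha* Mapoly0042s0115.1 (CML23) stood at 61.1 and 46.9 CPM in air and 62.6 and 47.3 CPM under hypoxia. In *P. patens* Pp3c5_10970 (CML23), the main moss member of this group, had 213 and 214 CPM in air and 237 and 236 CPM under hypoxia, a small difference without overlap (log2FC 0.15, adjusted p = 0.65). The *E. hyemale* member Ehym_DN109991_c8_g5 (CML11) overlapped, at 29.3, 25.4 and 15.4 CPM in air and 22.1, 23.5 and 26.5 CPM under hypoxia. The single *S. moellendorffii* member, 412625 (AT1G73440), was low throughout, with 2.52 and 3.52 CPM in air and 2.05 and 2.44 CPM under hypoxia (log2FC -0.30, adjusted p = 0.48). In *P. vittata* TRINITY_DN29361_c0_g1_i1, with the same best hit, had 18.4 and 16.8 CPM in air and 15.9 and 22.9 CPM under hypoxia. Its match was weak, with an E-value of 0.26. The 3 fern members of the class are transcripts of this Trinity gene, with a lowest E-value of 0.09.

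TCH3 of *A. thaliana* is a touch-induced EF-hand protein, counted here with the other EF-hand members. In *M. polymorpha* the gene with TCH3 as its best hit, Mapoly0033s0008.1, had 14.3 and 16 CPM in air and 26.5 and 32.1 CPM under hypoxia. These libraries did not overlap, and the difference passed the p threshold but not the fold threshold (log2FC 0.90 ± 0.13, adjusted p = 0.0039). Without hypoxia replicate 1 its log2FC was 1.04 and it was called.

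CBLs are EF-hand sensors that bind CIPKs and hold them at the plasma membrane or the vacuole. The 98 members of this class include 19 whose best hit, AT2G45670, is described as a calcineurin B subunit-related protein and is not a CBL proper. The class follows the wording of the description, so a CBL described only by its EF-hands is left out of it. None of the 98 was called, with 9 of them in *S. moellendorffii* and 44 in *P. vittata*, where no feature of the table was called. In *M. polymorpha* Mapoly0066s0053.1 (CBL2) had 157 and 148 CPM in air and 145 and 121 CPM under hypoxia (log2FC -0.20, adjusted p = 0.28), and the summed CBL transcripts went from 386 and 376 CPM in air to 367 and 333 CPM. Of the 6 genes of this class in the liverwort, 5 had a log2FC below 0, as did 6819 of all its 13572 genes. In *P. patens* and *S. moellendorffii* the most abundant members were of the subunit-related kind. The moss gene Pp3c1_8111 had 82.7 and 70.5 CPM in air and 91.3 and 78.8 CPM under hypoxia, and the lycophyte gene 121336 had 172 and 164 CPM in air and 157 and 165 CPM under hypoxia, both with overlapping libraries.

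CBL1 and CBL9 of *A. thaliana* act with CIPK23 on a root potassium channel. In *E. hyemale* Ehym_DN107649_c5_g2 (CBL9) had 39, 39 and 41.9 CPM in air and 35, 23 and 35.3 CPM under hypoxia, with every hypoxia library below every air library (log2FC -0.38, adjusted p = 0.4). A rarer gene with the same best hit, Ehym_DN109384_c5_g1, differed the other way, at 3.05, 3.6 and 2.86 CPM in air and 4.49, 7.41 and 6.03 CPM under hypoxia (log2FC 0.72, adjusted p = 0.2). In *P. vittata* the transcripts of the CBL1-like Trinity gene TRINITY_DN32670_c0_g1 summed to 62.1 and 50 CPM in air and 133 and 99.2 CPM under hypoxia (log2FC 1.03 ± 0.17, adjusted p = 0.062 over the Trinity genes). Its transcript TRINITY_DN32670_c0_g1_i3 had 6.4 and 5.42 CPM in air and 21.1 and 13.3 CPM under hypoxia, without overlap (log2FC 1.37, adjusted p = 0.29). The most abundant CBL transcript of the fern, TRINITY_DN31474_c0_g1_i2 (CBL3), had 59 and 58.9 CPM in air and 56.4 and 64 CPM under hypoxia.

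**Figure D2:**
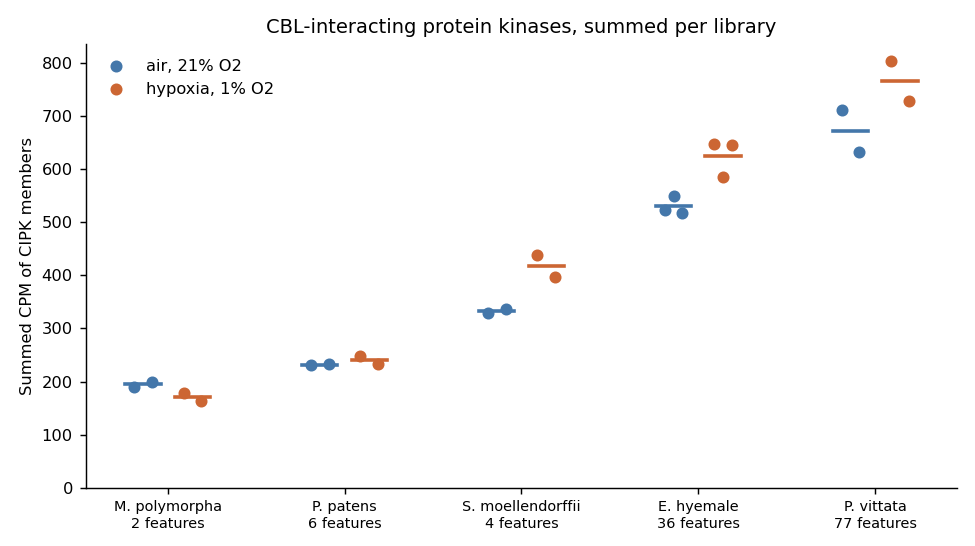
Summed CPM of the CIPK members in every library of the 5 species, air beside hypoxia, each point being 1 library. Hypoxia libraries lie above air libraries in *E. hyemale*, *P. vittata* and *S. moellendorffii*, lie below them in *M. polymorpha*, and overlap them in *P. patens*.

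The CIPKs are serine/threonine kinases that a bound CBL sensor activates. Their 125 members had 5 best hits, CIPK3, CIPK8, CIPK9, CIPK17 and CIPK23, of which CIPK9 and CIPK23 are tied to potassium supply and CIPK8 to nitrate in *A. thaliana*. They made up 3 of the 4 horsetail members higher past the fold threshold without overlap, where CIPKs were 36 of the 246 members. The 2 of them called below carry the same Trinity component number. In the fern they made up 14 of the 19 higher members and 7 of the 10 lower ones, where CIPKs were 77 of 342. Those 14 transcripts belong to 6 Trinity genes. Of all features, 1.33% in the horsetail and 2.83% in the fern lay higher in this way. In *E. hyemale* the summed CIPK transcripts were 523, 550 and 518 CPM in air and 647, 585 and 645 CPM under hypoxia, with no overlap (log2 ratio 0.24). In *S. moellendorffii* they were 329 and 337 CPM in air and 439 and 397 CPM under hypoxia (log2 ratio 0.33). In *M. polymorpha* the sum was lower under hypoxia, at 179 and 164 CPM against 190 and 199 CPM, and in *P. patens* the sums overlapped, at 231 and 233 CPM in air and 248 and 233 CPM under hypoxia.

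In *E. hyemale* 2 of the 36 CIPK genes were called, and both rose. Ehym_DN106525_c2_g5 (CIPK9) had 14.4, 15.6 and 12.7 CPM in air and 40.2, 31.1 and 32.4 CPM under hypoxia. Every hypoxia library lay far above every air library (log2FC 1.22 ± 0.16, adjusted p = 0.0023). Ehym_DN106525_c2_g2, also with CIPK9 as its best hit, had 16.7, 18.5 and 16.9 CPM in air and 37.5, 35.6 and 38.7 CPM under hypoxia (log2FC 1.06 ± 0.13, adjusted p = 0.0019). Both carry the same Trinity component number, so they may share reads and are not independent. Both calls were lost without air replicate 4, with an adjusted p of 0.022 and 0.02, and without a trend of the prior variance, where the adjusted p of each lay above the threshold but rounded to 0.01. The first of them, c2_g5, was also lost without air replicate 1 or 3, and c2_g2 without air replicate 1, air replicate 3 or hypoxia replicate 3, and with pseudocount 5 CPM.

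Further CIPK genes of *E. hyemale* lay higher under hypoxia without passing the thresholds. Ehym_DN107923_c0_g2 (CIPK8) had 1.27, 5.56 and 0.449 CPM in air and 7.93, 10.8 and 7.56 CPM under hypoxia (log2FC 1.79 ± 0.46, adjusted p = 0.098), with air replicates that differed widely among themselves. Without air replicate 3 it was the single called member (log2FC 2.41, adjusted p = 0.0053), and without air replicate 4 its log2FC was 1.32. Its neighbour in the assembly Ehym_DN107923_c0_g4 (CIPK8), the most abundant CIPK of the horsetail, had 70.9, 69.8 and 69.2 CPM in air and 113, 85.7 and 92.3 CPM under hypoxia (log2FC 0.45 ± 0.13, adjusted p = 0.14). From another component, Ehym_DN104475_c7_g4 (CIPK23) had 7.43, 8.46 and 7.9 CPM in air and 17.5, 15.7 and 16.3 CPM under hypoxia (log2FC 0.97, adjusted p = 0.011). In contrast, Ehym_DN106575_c2_g4 (CIPK23) lay lower under hypoxia, with 28, 31.5 and 30.1 CPM in air and 19.8, 16.9 and 20.4 CPM under hypoxia (log2FC -0.63, adjusted p = 0.058). CIPK genes of the horsetail thus lay on either side of 0, with 18 positive and 18 negative log2FC and a median of 0.01.

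**Figure D3:**
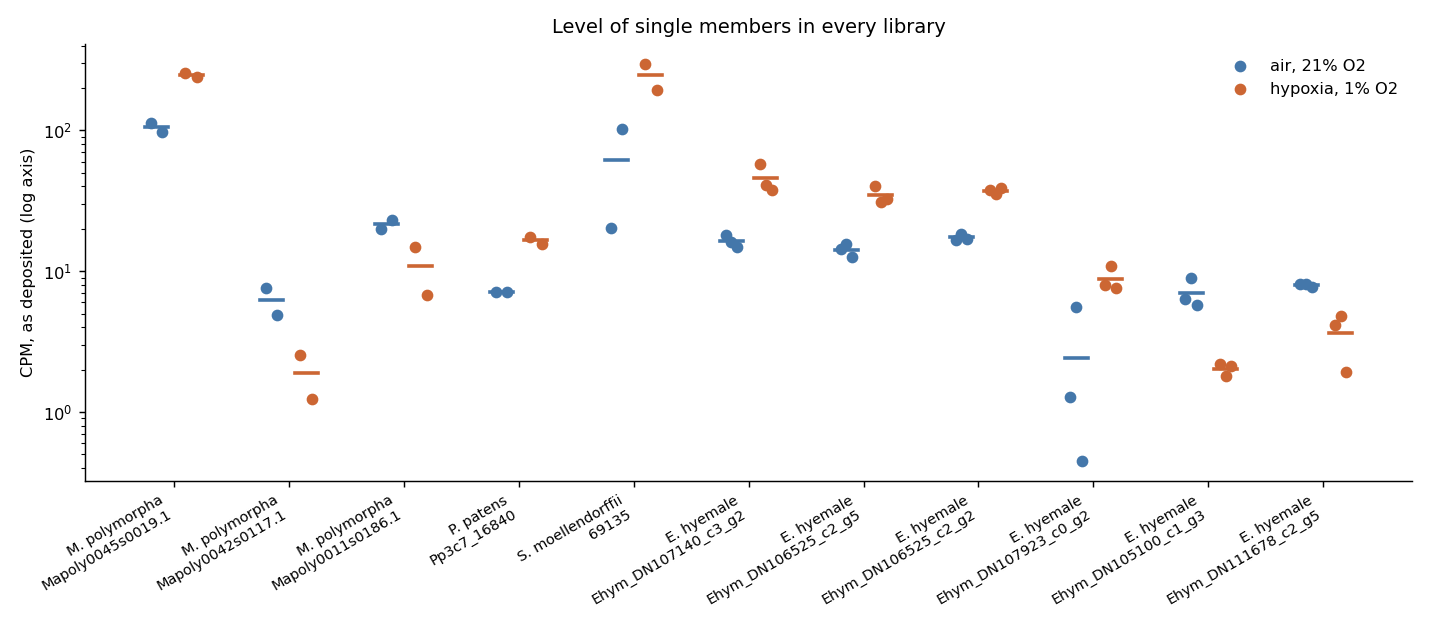
CPM in every library for single members named in the text, air beside hypoxia on a log axis, with each point being 1 library and each short line the mean. The called *E. hyemale* and *M. polymorpha* members have hypoxia libraries above all air libraries, and the *S. moellendorffii* EF-hand gene 69135 shows the wide spread between its 20.4 and 103 CPM air libraries.

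In *P. vittata* the 77 CIPK transcripts came from 22 Trinity genes. The most abundant, TRINITY_DN32696_c1_g1_i3 (CIPK9), had 64.4 and 59.9 CPM in air and 51.2 and 62.1 CPM under hypoxia. The largest positive log2FC without overlap was that of TRINITY_DN24368_c0_g1_i5 (CIPK9), at 5.41 and 0.883 CPM in air and 16.8 and 8.17 CPM under hypoxia (log2FC 1.88 ± 0.66, adjusted p = 0.45). The largest negative log2FC was that of TRINITY_DN32355_c0_g1_i10 (CIPK23), at 4.86 and 7.71 CPM in air and 0.242 and 2.07 CPM under hypoxia (log2FC -1.87 ± 0.50, adjusted p = 0.36). Neither passed the test. Leaving out 1 library moved the first between 0.99 and 2.76, the lowest without air replicate 3 and the highest without air replicate 1, and the second between -2.52 and -1.22, without hypoxia replicate 3 and without hypoxia replicate 1. TRINITY_DN31191_c0_g1_i7 (CIPK3), the tightest of the higher ones named by the rule, had 2.04 and 1.2 CPM in air and 9.43 and 6.39 CPM under hypoxia (log2FC 1.76 ± 0.31, adjusted p = 0.26). TRINITY_DN24368_c0_g1_i2 (CIPK9) was at 0 in an air library and at 2.22 CPM in the other, with 4.64 and 4.06 CPM under hypoxia (log2FC 1.57 ± 0.58, adjusted p = 0.47), and leaving out air replicate 3 or air replicate 1 gave a log2FC of 0.73 or 2.42.

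Transcripts of a Trinity gene divide its reads, so they were also summed. The 14 higher CIPK transcripts belonged to 6 Trinity genes and the 7 lower ones to 5, of which 2 held both. After summing, 3 CIPK genes were past the fold threshold and higher without overlap and 0 were lower. Over all 122 Trinity genes of the members, 4 were higher and 1 lower, against 1.45% and 0.182% of all Trinity genes. TRINITY_DN24368_c0_g1 (CIPK9), whose 4 transcripts all lay higher, summed to 43.9 and 21.4 CPM in air and 104 and 69.9 CPM under hypoxia (log2FC 1.44 ± 0.32, adjusted p = 0.11). TRINITY_DN31191_c0_g2 (CIPK23) summed to 44.1 and 23.3 CPM in air and 105 and 72.6 CPM under hypoxia (log2FC 1.42 ± 0.29, adjusted p = 0.095).

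Other fern CIPK genes held transcripts with large log2FC beside a sum nearer to 0. TRINITY_DN35685_c0_g1_i3 (CIPK3) had 15.6 and 9.57 CPM in air and 3.5 and 3.46 CPM under hypoxia (log2FC -1.56 ± 0.28, adjusted p = 0.27). The whole of TRINITY_DN35685_c0_g1 had 51.2 and 54.5 CPM in air and 48 and 46 CPM under hypoxia (log2FC -0.17, adjusted p = 0.54). TRINITY_DN31983_c0_g1_i6 (CIPK23) similarly had 7.4 and 8.96 CPM in air and 2.03 and 2.98 CPM under hypoxia, while the sum of its gene overlapped, at 55.1 and 70.2 CPM in air and 51.2 and 59.5 CPM under hypoxia. The remaining gene past the threshold, TRINITY_DN11272_c0_g1 with CIPK8 as its best hit, had at most 2.72 CPM in a library and a weak match, with an E-value of 0.2. An E-value above 1e-10 was found for 39 of the fern members, 4 of them CIPKs.

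**Figure D4:**
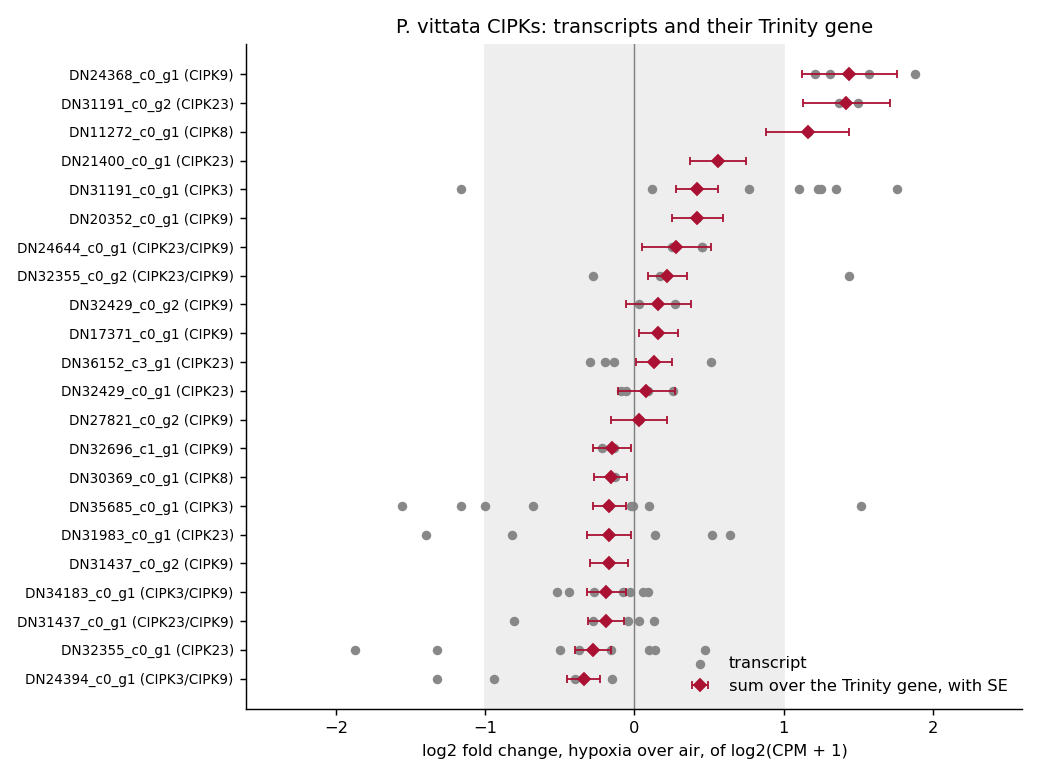
CIPK transcripts of *P. vittata* grouped by Trinity gene, with the log2FC of each transcript (dots) and of the summed gene (diamonds, with SE), hypoxia minus air. Past the shaded range, 2 genes hold transcripts on both sides, while the sums of TRINITY_DN24368_c0_g1 and TRINITY_DN31191_c0_g2 lie at 1.44 and 1.42.

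In the other species no single CIPK gene had a log2FC past 1. In *S. moellendorffii* gene 79434 (CIPK23) had 110 and 131 CPM in air and 209 and 163 CPM under hypoxia, without overlap (log2FC 0.62, adjusted p = 0.16). The companion gene 90416 (CIPK23) had 162 and 151 CPM in air and 169 and 174 CPM under hypoxia. In *P. patens* Pp3c14_7960 (CIPK9) had 15 and 13.9 CPM in air and 23.6 and 20.6 CPM under hypoxia (log2FC 0.58 ± 0.12, adjusted p = 0.13), and the most abundant moss CIPK, Pp3c16_15230 (CIPK23), overlapped at 80.3 and 79.6 CPM in air and 80.8 and 72 CPM under hypoxia. In *M. polymorpha* Mapoly0005s0039.1 (CIPK23), which carried nearly all CIPK transcripts of the liverwort, had 189 and 198 CPM in air and 178 and 164 CPM under hypoxia (log2FC -0.18, adjusted p = 0.27).

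CDPKs phosphorylate their targets when Ca2+ binds their calmodulin-like domain. None of the 178 members was called, with 15 of them in *S. moellendorffii* and 69 in *P. vittata*, where no feature of the table was called. In *M. polymorpha* Mapoly0098s0040.1 (CPK16) had 93.9 and 103 CPM in air and 142 and 142 CPM under hypoxia, a difference below the fold threshold (log2FC 0.52, adjusted p = 0.01). The most abundant liverwort CDPK, Mapoly0007s0233.1 (CPK2), had 279 and 295 CPM in air and 335 and 285 CPM under hypoxia, and its libraries overlapped. In *S. moellendorffii* the CPK16-like gene 92726 also lay higher under hypoxia, at 29.3 and 23 CPM against 10.3 and 16.8 CPM in air (log2FC 0.92 ± 0.23, adjusted p = 0.17). The most abundant CDPK of the lycophyte, 185762 (CPK19), had 333 and 330 CPM in air and 359 and 363 CPM under hypoxia.

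Most CDPKs of the moss, the horsetail and the fern had a log2FC below 0, with none called. Those above 0 were 33.3%, 41% and 39.1%, beside 50.6%, 49.9% and 50.3% of all features. The median log2FC of the CDPKs was close to 0, at -0.04, -0.09 and -0.07. In *P. patens* 16 of 24 had a log2FC below 0, with Pp3c12_21880 (CPK17) at 43.3 and 33.5 CPM in air and 27.2 and 29.6 CPM under hypoxia (log2FC -0.41, adjusted p = 0.34). The main moss CDPK, Pp3c11_4640 (CPK7), had 218 and 177 CPM in air and 171 and 172 CPM under hypoxia. In *E. hyemale* 36 of 61 were below 0, where Ehym_DN111678_c2_g5 (CPK29) had 8.13, 8.06 and 7.7 CPM in air and 4.17, 4.77 and 1.93 CPM under hypoxia (log2FC -1.01 ± 0.27, adjusted p = 0.11). Ehym_DN97115_c0_g1 (CPK6), the most abundant, overlapped, with 90, 103 and 106 CPM in air and 89.2, 94.7 and 116 CPM under hypoxia. In *P. vittata* 42 of 69 transcripts were below 0, and these 69 came from 32 Trinity genes, so they are not independent. There TRINITY_DN34782_c0_g1_i3 (CPK25) had 45.2 and 62.4 CPM in air and 19.9 and 31.6 CPM under hypoxia (log2FC -1.05, adjusted p = 0.36), and TRINITY_DN33660_c0_g1_i5 (CPK5), the most abundant, overlapped at 128 and 167 CPM in air and 133 and 149 CPM under hypoxia.

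CPK12 of *A. thaliana* is a CDPK known from the hypoxia response of that species. It was the best hit of 3 members, none of which was called. In *P. patens* Pp3c17_9060 had 43.7 and 44.4 CPM in air and 48.2 and 49.7 CPM under hypoxia (log2FC 0.15, adjusted p = 0.63), and Pp3c19_20580 overlapped at 19.1 and 24 CPM in air and 22.7 and 18.6 CPM under hypoxia. In *S. moellendorffii* 82473 had 34.4 and 35 CPM in air and 39.2 and 34.6 CPM under hypoxia (log2FC 0.08, adjusted p = 0.7). CML37, CML38, CML39, CML42 and CIPK25, which also respond to low oxygen in *A. thaliana*, were the best hit of 0 members.

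The autoinhibited Ca2+-ATPases (ACA) pump Ca2+ out of the cytosol and are released from autoinhibition when calmodulin binds them. None of the 46 pump members was called, with 5 of them in *S. moellendorffii* and 18 in *P. vittata*, where no feature of the table was called. Nearest was Ehym_DN105100_c1_g3 of *E. hyemale*, with ACA8, a plasma membrane pump of *A. thaliana*, as its best hit, at 6.3, 8.93 and 5.77 CPM in air and 2.18, 1.79 and 2.12 CPM under hypoxia. The hypoxia libraries lay far below all air libraries, with an adjusted p just outside the threshold (log2FC -1.38 ± 0.23, adjusted p = 0.012), and the gene was called without a trend of the prior variance (adjusted p = 0.0087). Ehym_DN99909_c1_g1, also ACA8-like, lay on the other side, with 29, 34.1 and 32.4 CPM in air and 55.4, 38.3 and 52.1 CPM under hypoxia (log2FC 0.58, adjusted p = 0.13). The most abundant pump of the horsetail, Ehym_DN105960_c7_g2 (ACA1), overlapped at 152, 151 and 160 CPM in air and 153, 141 and 101 CPM under hypoxia.

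In *M. polymorpha* the pump transcripts summed to 150 and 168 CPM in air and 138 and 126 CPM under hypoxia, lower without overlap (log2 ratio -0.27). The main gene, Mapoly0034s0113.1 with the vacuolar pump ACA11 as its best hit, had 106 and 119 CPM in air and 95.1 and 86.3 CPM under hypoxia (log2FC -0.31, adjusted p = 0.088). In *S. moellendorffii* the sum was also slightly lower, at 849 and 844 CPM against 896 and 866 CPM in air, and its main gene 173214 (ACA8) had 347 and 361 CPM in air and 368 and 361 CPM under hypoxia. In *P. patens* Pp3c19_22060 (ACA8) overlapped, with 200 and 154 CPM in air and 212 and 163 CPM under hypoxia. In *P. vittata* the sum overlapped, TRINITY_DN33020_c0_g1_i1 (ACA8) had 24 and 21.6 CPM in air and 18.3 and 20.2 CPM under hypoxia, and the summed gene TRINITY_DN21792_c0_g1, with transcripts best matching ACA1 and ACA11, had 7.89 and 14.8 CPM in air and 4.65 and 4.96 CPM under hypoxia (log2FC -1.03 ± 0.26, adjusted p = 0.14).

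The 171 calmodulin-binding members are targets of calmodulin, among them transcription activators, receptor-like kinases and a kinesin. None was called, with 19 of them in *S. moellendorffii* and 63 in *P. vittata*, where no feature of the table was called. In *M. polymorpha* Mapoly0126s0010.1 (AT3G13600) had 87.7 and 113 CPM in air and 197 and 179 CPM under hypoxia, just below the fold threshold (log2FC 0.91 ± 0.13, adjusted p = 0.004). On the lower side Mapoly0024s0045.1 (CRCK1, a calmodulin-binding receptor-like kinase) had 112 and 89.4 CPM in air and 62.1 and 62 CPM under hypoxia (log2FC -0.68, adjusted p = 0.0084). Mapoly0011s0186.1 (AT2G47010) had 20 and 23.1 CPM in air and 14.9 and 6.77 CPM under hypoxia (log2FC -1.02 ± 0.29, adjusted p = 0.045). It was called without hypoxia replicate 1 (log2FC -1.53, adjusted p = 4.1e-05) and had a log2FC of -0.50 without hypoxia replicate 2. In *E. hyemale* Ehym_DN103679_c0_g2, with the calmodulin-binding kinesin AT5G65930 as its best hit, had 8.47, 12.7 and 13 CPM in air and 4.82, 8.07 and 5.61 CPM under hypoxia (log2FC -0.79, adjusted p = 0.16). In *S. moellendorffii* 137598 (PSL4) was rare, with 1.71 and 1.75 CPM in air and 1.3 and 0.785 CPM under hypoxia (log2FC -0.43, adjusted p = 0.34).

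The 173 remaining members are described by EF-hands without one of these names and hold both of the calls outside the CIPKs. Calmodulin-like proteins and CBLs not described as such are counted among them. Mapoly0045s0019.1 of *M. polymorpha* (AT4G03290) had 113 and 97.7 CPM in air and 256 and 241 CPM under hypoxia. Its hypoxia libraries were both above 2 times the air mean, with a ratio of means of 2.36, and it was the single call of the liverwort (log2FC 1.24 ± 0.11, adjusted p = 0.00095). The call was lost without air replicate 2 (log2FC 1.14, adjusted p = 0.011). Ehym_DN107140_c3_g2 of *E. hyemale* (AT4G26470) had 18.2, 16 and 14.8 CPM in air and 58, 41.1 and 37.8 CPM under hypoxia, again without overlap (log2FC 1.41 ± 0.18, adjusted p = 0.0021). It was lost without air replicate 3, without air replicate 4 (adjusted p = 0.021) and without a trend of the prior variance (adjusted p = 0.011). The *S. moellendorffii* gene with the same best hit, 425580, lay on the lower side, at 26.5 and 25.2 CPM in air and 16.2 and 20.2 CPM under hypoxia (log2FC -0.49, adjusted p = 0.17).

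The largest log2FC of any member was that of the *S. moellendorffii* gene 69135 (AT1G18210). It had 20.4 CPM in the unnumbered air library, 103 CPM in air replicate 3, and 297 and 195 CPM under hypoxia. The groups did not overlap, but on the log scale the air libraries differed from each other by more than the hypoxia libraries did, and the test did not pass (log2FC 2.36 ± 0.71, adjusted p = 0.22). Without air replicate 3 the log2FC was 3.50 ± 0.24 and the gene was called (adjusted p = 0.0045), with the lone air library assumed to vary like the hypoxia libraries, in a fit that left out that sample. Without the unnumbered air library it was 1.22 (adjusted p = 0.17). Sucrose synthase moved with it, at 133 and 350 CPM in air and 885 and 728 CPM under hypoxia in the same library order, and its part in the result was not tested.

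AT1G32250, described as an EF-hand protein, was the best hit of members in every species except *S. moellendorffii*. Their summed CPM was higher under hypoxia without overlap in all 4. At any fold, single features lay higher without overlap for 30.1% of *M. polymorpha*, 20.5% of *P. patens*, 9.66% of *E. hyemale* and 21.6% of *P. vittata*. How many other best hits lay higher in all their species was not counted. Pp3c7_16840 of *P. patens* had 7.12 and 7.14 CPM in air and 17.5 and 15.7 CPM under hypoxia (log2FC 1.12 ± 0.12, adjusted p = 0.022), the only moss member past the fold threshold. Mapoly0001s0184.1 of *M. polymorpha* had 308 and 257 CPM in air and 473 and 537 CPM under hypoxia, past the p threshold but not the fold threshold (log2FC 0.84, adjusted p = 0.0049). Summed over 2 features each, *E. hyemale* had a mean of 7.62 CPM in air and 13 CPM under hypoxia, and *P. vittata* 5.09 and 9.64 CPM, none of these features being called. The fern features were weak matches, with a lowest E-value of 8e-05. The other moss gene of this best hit, Pp3c11_8830, overlapped at 13.3 and 18.3 CPM in air and 16.3 and 15.3 CPM under hypoxia. Genes with AT1G24620 as their best hit lay on both sides in the moss. Pp3c5_10920 had 8.77 and 10.1 CPM in air and 11.3 and 14.2 CPM under hypoxia (adjusted p = 0.39), Pp3c3_5720 had 11.5 CPM in both air libraries and 8.39 and 7.73 CPM under hypoxia (adjusted p = 0.21), and Pp3c16_23390 had 1.39 and 1.8 CPM in air and 0.693 and 0.759 CPM under hypoxia (adjusted p = 0.3).

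On the lower side in *M. polymorpha*, Mapoly0042s0117.1 (AT3G10190) had 7.54 and 4.86 CPM in air and 2.53 and 1.24 CPM under hypoxia, the largest negative log2FC of the liverwort members (-1.33 ± 0.26, adjusted p = 0.012). It was called without hypoxia replicate 1 (log2FC -1.66, adjusted p = 0.0003). Mapoly0012s0028.1 (AT1G53210), a sodium/calcium exchanger family protein with an EF-hand, had 3.29 and 3.38 CPM in air and 2.08 and 0.869 CPM under hypoxia (log2FC -0.85 ± 0.24, adjusted p = 0.047). Mapoly0103s0051.1 (AT4G38810) had 94.2 and 95.4 CPM in air and 66.9 and 56 CPM under hypoxia, below the fold threshold (log2FC -0.62, adjusted p = 0.0085). The sum of all EF-hand genes of this kind was nevertheless higher under hypoxia in the liverwort, at 2372 and 2336 CPM against 2023 and 1932 CPM in air.

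Members past the fold threshold were also counted by best hit across species. With that fold and without overlap, 12 best hits had a higher member in at least 1 species, 2 of them (CIPK9 and CIPK8) in 2 species, *E. hyemale* and *P. vittata*, and 0 in 3. For CIPK8 the fern member was the weak match described above. On the lower side 9 best hits had a member in at least 1 species and 0 in 2. By limma's calls, 3 best hits had a higher member and none in 2 species. The same counts over all best hits of the tables were not made, so these numbers cannot be called few or many. Best hits with many features had more chances to pass, as CIPK9 with 6 in *E. hyemale* and 18 in *P. vittata*.

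Calcium channels, exchangers and other genes of calcium transport that the rule leaves out were counted beside the members. Cyclic nucleotide gated channels, glutamate receptors, annexins, the two-pore channel, cation exchangers, ER-type Ca2+-ATPases, CDPK-related kinases and phospholipase C numbered 73 features in *P. vittata*, 69 in *E. hyemale*, 56 in *P. patens*, 23 in *S. moellendorffii* and 22 in *M. polymorpha*. Limma called 1 of them, the *M. polymorpha* gene Mapoly0030s0112.1 with the cation exchanger AT3G13320 as its best hit, which was lower under hypoxia (log2FC -1.70). Of all *M. polymorpha* genes 1.35% were called lower, and 0% of the *S. moellendorffii* and *P. vittata* tables was called. The median log2FC of these related features was -0.06 in *P. vittata* and *E. hyemale*, -0.09 in *P. patens*, 0.04 in *S. moellendorffii* and 0.06 in *M. polymorpha*.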

How the data were processed

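RNA-seq reads were quantified with kallisto against reference transcriptomes (*M. polymorpha*, *P. patens*, *S. moellendorffii*) or Trinity assemblies (*E. hyemale*, *P. vittata*) by the authors, who scaled libraries with TMM in edgeR. Tool versions are not given in the sources used here. The authors deposited log2 CPM per library, with no pseudocount and with genes of few reads removed, and these were turned back into CPM. Some *E. hyemale* columns hold text where a value is 0, and the deposited E-value column of other numbers was read as it stands. The deposited columns of log2 fold change and FDR hold the authors' own comparisons and were not used. Only 39.8% to 79.6% of low values were whole reads within 0.1 read, so no count test was run.

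Members and role lists were chosen with earlier results of these data known. limma 3.58.1 in R 4.3.3 (lmFit, eBayes with a trend of the prior variance) was fitted to log2(CPM + 1) of the whole table of each species, and p-values were adjusted by Benjamini-Hochberg over that table. A fold change on this scale understates the change of low genes. The named genes were the called members, the 3 largest rises and falls without overlap above 1 CPM, the most abundant member of each role and the best hits of known hypoxia genes. Other members were named after their values were seen. The labels do not say whether libraries of a group came from separate cultures, so p-values measure the spread between these libraries. CPM rows of *E. hyemale* follow the gene identifiers sorted with the _ character before digits. In that order the correlation between the libraries' mean and the deposited mean expression was 0.9996, against 0.0103 in the order of the file. In simulated data with 200 features changed by 2 on the log2 scale, 100% were called for *M. polymorpha*, 99.5% for *P. patens*, 94.5% for *S. moellendorffii* and 97% for *E. hyemale*. The simulated noise was drawn from the fitted prior, with no library standing apart as air replicate 3 of *S. moellendorffii* did. In that species 1.21% of all genes lay higher past the fold threshold without overlap, while 0% were called. Its 0 calls thus do not show that changes of the simulated size were missing. Alternatives were the pseudocount, a filter at 1 CPM, no trend, library totals or relative log expression as scaling, the thresholds, a replicate block, Trinity gene sums and leaving out each library.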

Additional observations from a re-analysis of the deposited data

Results flagged for a closer look

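The summed CPM of some roles lay without overlap on opposite sides of air in different species. These differences between species were not tested, since the tables were normalized separately. Among single features such separation at any fold was common, at 9.38% to 30.4% of a table in a direction. For the CIPKs the log2 ratio of hypoxia to air was 0.24 in *E. hyemale*, 0.19 in *P. vittata* and 0.33 in *S. moellendorffii*, and -0.18 in *M. polymorpha*. For the CBLs it was 0.08 in *P. patens* and 0.16 in *P. vittata*, and -0.12 in *M. polymorpha* and -0.07 in *S. moellendorffii*. Much of 2 of these sums came from AT2G45670, which is not a CBL proper. In air it averaged 296 CPM in *P. patens*, where the class summed to 423 and 420 CPM. In *S. moellendorffii* it averaged 239 CPM in air, where the class summed to 384 and 361 CPM. For the CDPKs it was 0.10 in *S. moellendorffii* and -0.10 in *P. patens*. For the calmodulin-like proteins it was 0.15 in *P. patens* and 0.07 in *P. vittata*, and -0.43 in *S. moellendorffii*, where the class is a single gene under 4 CPM. The fern class rests on weak matches, with a lowest E-value of 0.09. With library totals as scaling the *P. vittata* sums of the CIPKs and the calmodulin-like proteins overlapped.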

How the results depend on the processing

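Counts of called members changed under few settings. In *M. polymorpha* 1 member was called lower with the replicate block, 2 at an adjusted p under 0.05, and 2 with no minimum fold, with 4 higher then. In *E. hyemale* no trend gave 0 higher and 1 lower, and an adjusted p under 0.05 gave 1 lower. In *P. patens* that threshold gave 1 higher. Leaving out 1 library gave 0 to 2 higher and 0 to 4 lower in *M. polymorpha*, 0 to 1 higher in *S. moellendorffii*, where the 1 came without air replicate 3, and 0 to 4 higher in *E. hyemale*, with 0 without air replicate 4 and 1 without air replicate 1 or 3. The 4 lower *M. polymorpha* members came without hypoxia replicate 1. The cause of these changes was not tested. Without 1 library, the log2FC of Pp3c19_20580 ranged from -0.21 to 0.10 and that of 82473 from -0.01 to 0.17, around -0.06 and 0.08 over all libraries.

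In 3 species the air and hypoxia columns share their replicate numbers. The deviations of same-numbered libraries had correlations of 0.03 in *M. polymorpha*, 0.06 in *P. vittata* and -0.28 to -0.08 in *E. hyemale*. These values do not show that the numbers pair the libraries, and they cannot exclude it. With the replicate block 2 members were called higher in *E. hyemale*, Ehym_DN106525_c2_g2 having an adjusted p of 0.013 by limma, and the *M. polymorpha* member called lower was Mapoly0042s0117.1 (adjusted p = 0.0006). The columns of *P. patens* and *S. moellendorffii* share a single number between air and hypoxia, too few for such a fit. Limits are the 2 libraries per group in 4 species, the spread of *P. vittata* transcripts, and assembled genes that can share reads.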
